A study of Mus musculus with 8 samples.

Results

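The replication genes described here are 52 genes of the origin and fork machinery, chosen by name: the origin recognition complex, the licensing factors, the MCM helicase with CDC45 and GINS, the replicative polymerases, the PCNA clamp and its loader, RPA, the factors that finish Okazaki fragments, the histone chaperones of the fork and the fork protection factors. The choice was made with earlier results of these data known. All 52 matched a row of the deposited table, which has 38918 gene rows. Polyadenylated RNA was sequenced from BMiFLT3 (15-3) cells, a mouse line that the labels describe as pro-B cells of a B-cell precursor leukaemia (BCP-ALL). The cells carried a retroviral construct for Klf2, a zinc-finger transcription factor, or, as the control, a retroviral construct for BFP, blue fluorescent protein. The sample descriptions of both groups end in BFP, and whether the Klf2 construct also carries BFP is not stated. The study asked which genes respond to Klf2 overexpression, in 1 cell line with no other treatment named. Of the 2 library kits in the protocol, the one used for either library is not stated, so kit and construct cannot be told apart.

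DNA replication is prepared in G1 and carried out in S phase. The origin recognition complex (ORC) binds origins and, with CDC6 and CDT1, loads the MCM2-7 helicase as an inactive double ring, a step called licensing that geminin blocks outside G1. The CDC7-DBF4 kinase then helps CDC45 and GINS join the ring, the helicase unwinds DNA, and the polymerases follow with the sliding clamp PCNA, while histone chaperones rebuild chromatin behind the fork. Many of these genes are textbook targets of E2F transcription factors and are transcribed mainly around the G1 to S transition, so their RNA is high in dividing cells such as B-cell progenitors.

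Each group is deposited as 4 samples that share a description and differ in the sequencing lane. Lanes 1 to 4 of a group differed by little more than sampling noise, with a chi-square per degree of freedom of 1.28 (Klf2) and 1.30 (BFP) over all exon reads, and of 1.04 and 1.03 over uniquely placed ones. Lanes were therefore summed and counted as 1 sample, n = 1 per group. The Klf2 library held 30835450 exon reads (7682298 to 7741626 per lane) and the BFP library 30133978 (7506567 to 7588695 per lane). Since n = 1, every difference below lacks a check by replicates and is given without a p-value. Levels are CPM, exon reads per 1000000 exon reads of the library, with TMM scaling, a factor that aligns the bulk of genes between libraries. A ratio is the CPM of the Klf2 library over that of the BFP library, with the exact 95% interval in parentheses, which covers counting error only. Klf2 itself was at 113, 109, 114 and 114 CPM in the Klf2 lanes, against 11.4, 10.6, 9.41 and 9.07 CPM in the BFP lanes, a ratio of 11.1 (9.93 to 12.6). On exon junction reads alone the ratio of Klf2 was 30.8 (20.4 to 48.9), so its size depends on the kind of read. Of 12 pro-B markers found in the table, 9 were at 1 CPM or more in each library, with summed levels of 3737 CPM in the Klf2 and 3383 CPM in the BFP library. The exceptions were the recombinase genes Rag1 and Rag2 and the terminal transferase gene Dntt, with 1, 4 and 9 reads in the Klf2 library and 1, 7 and 1 reads in the BFP library. Markers of myeloid, T, erythroid and stromal cells summed to at most 6.99 CPM per list in the Klf2 library and 8.94 CPM in the BFP library. Of the 5 T cell markers Cd3e, Cd4 and Cd8a had no read in either library, Cd3g had 1 read in the Klf2 library and 3 in the BFP library, and Trac had 208 and 123 reads.

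Replication genes were higher in the Klf2 library almost throughout. Of the 52 genes, 49 had an interval above 1, against 37.1% of the 10850 genes tested, those that reached 1 CPM in one of the libraries or both. An interval below 1 was found for 1 of the 52, against 37.3% of all genes tested. At least 1.5-fold higher, with an interval above 1, were 32 of the 52, against 10.2% of all genes tested, and none was at least 1.5-fold lower, against 13.9%. At least 2-fold higher were 8 of the 52, against 2.45% of all genes tested, and none was at least 2-fold lower, against 5.67%. All 52 genes passed the filter of 1 CPM, and the lowest level was 8.55 CPM, for Gins2 in the BFP library, counted mostly from exon junction reads. Among the 7862 tested genes whose mean CPM lay in the range of the replication genes, 43.5% had an interval above 1 and 36.4% one below 1. At least 1.5-fold higher were 9.59% of these and lower 9.09%, and at least 2-fold higher were 1.3% and lower 2.65%. The median log2 ratio was 0.63 for the 52 genes and -0.01 for all genes tested. It was 0.17 in the 20% of tested genes with the highest mean CPM, which holds 27 of the 52. In bulk RNA, more cells in S phase and more RNA of these genes per cell cannot be told apart.

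**Figure D1:**
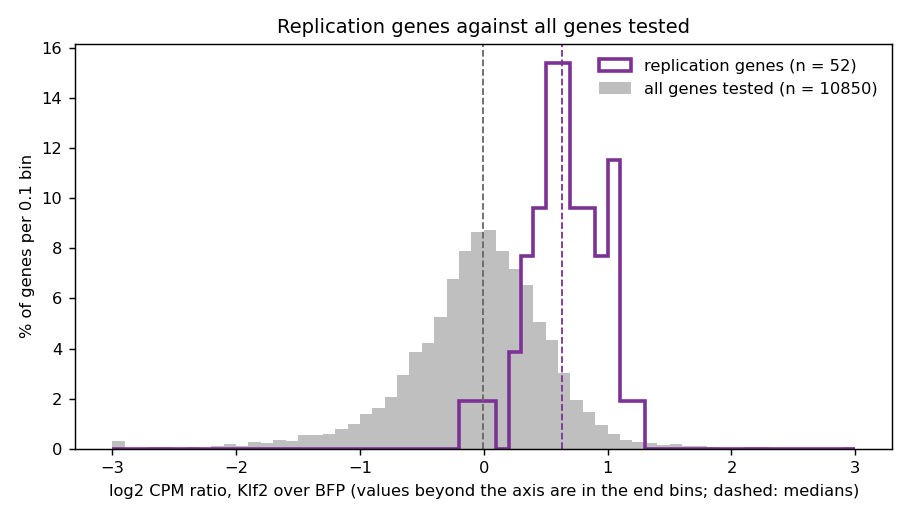
Distribution of the log2 CPM ratio, Klf2 over BFP (x axis), as the percentage of genes per bin of 0.1 (y axis), for the 52 replication genes (purple outline) and the 10850 genes tested (grey). The replication genes centre on a median of 0.63, while all genes tested centre on -0.01.

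As a pool, the 52 genes took 0.940% of exon reads in the Klf2 library and 0.641% in the BFP library. Their summed level was 9699, 9717, 9697 and 9705 CPM in the Klf2 lanes, against 6237, 6197, 6162 and 6256 CPM in the BFP lanes, a ratio of 1.56 (1.55 to 1.57). The lanes of the 2 libraries did not overlap for the sum. Lanes of a library are not replicates, and this says only that the difference of the sum exceeds counting noise. The 3 genes without an interval above 1 were Cdt1, Cdc7 and Pole2.

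The size of the ratios depends on the scaling. When libraries were scaled by total exon reads, only Orc1 and Gmnn were at least 2-fold higher, and when scaled on the 20% of genes with the highest mean CPM only Orc1 was. Scaling on the 20% of genes with the lowest mean CPM gave 17. Over all genes tested, 266 genes passed the 2-fold rule upward and 615 downward with TMM, 571 and 419 when scaled on the lowest 20%, and 162 and 881 when scaled on the highest 20%. These last 2 scalings put the median log2 ratio of all genes tested at 0.20 and -0.18. The median of the replication genes less that of all genes tested was 0.64 under TMM and 0.64 under each of the 4 other scalings, since a scaling shifts all genes alike.

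**Figure D2:**
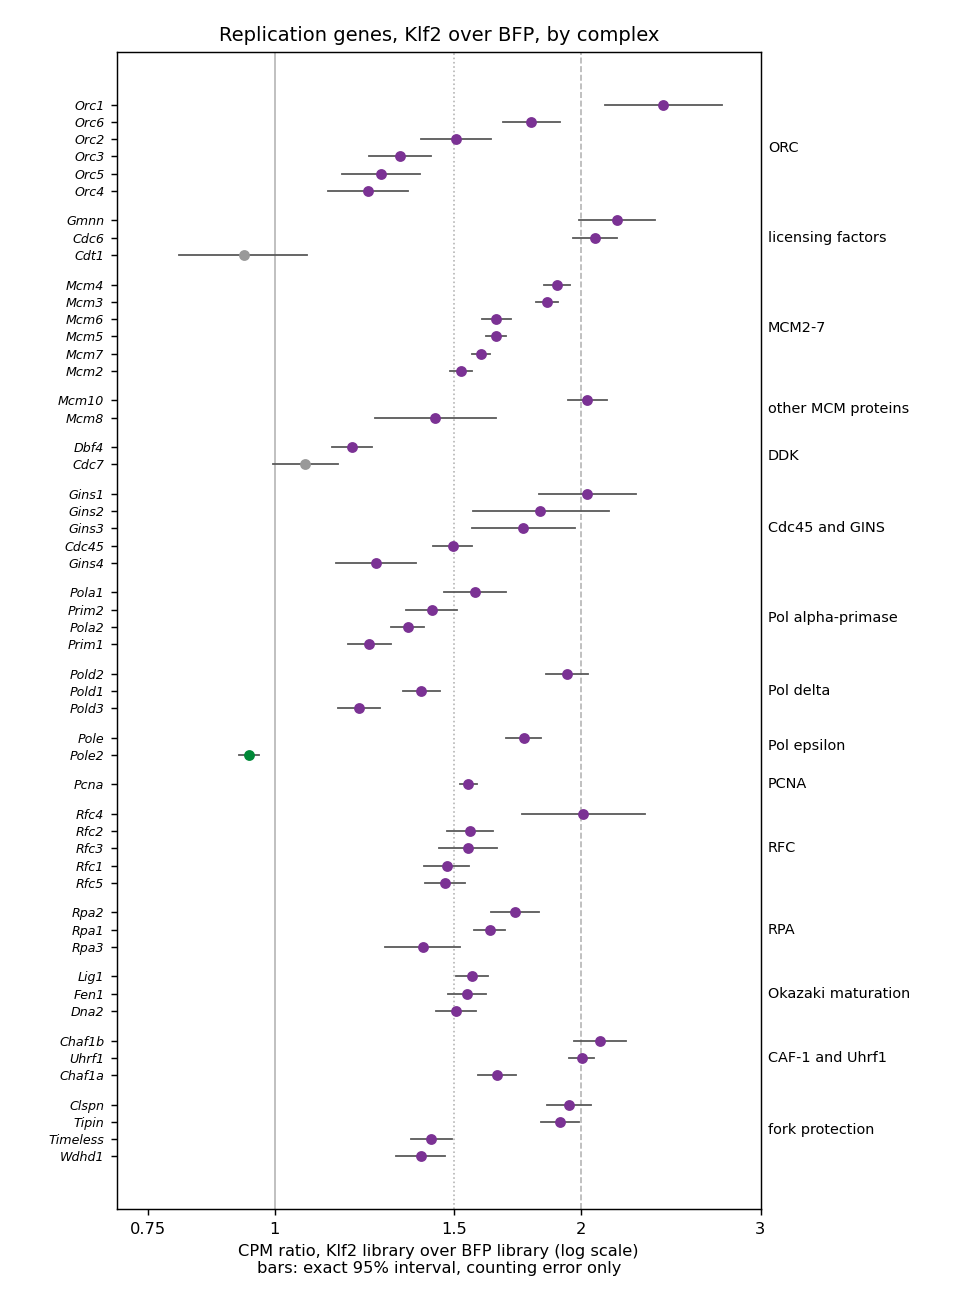
CPM ratio of each replication gene, Klf2 library over BFP library (x axis, log scale), grouped by complex, with bars for the exact 95% interval of counting error. Purple points have an interval above 1, grey points include 1 (Cdt1 and Cdc7) and the green point lies below 1 (Pole2).

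E2F sites are the element for which promoters of this group are best known, so the promoter letters were set beside the ratios. RefSeq promoter windows, from 250 bases before to 50 bases after an annotated start (build GRCm38.p6, the assembly of mm10), were available for 43 of the 52 genes, in 53 windows. No window was available for Gmnn, Gins1, Tipin, Mcm4, Gins2, Pole, Rfc2, Prim2 and Gins4. Gmnn, with a ratio of 2.17, and Gins1, with 2.03, are thus missing from the shares and medians below. The E2F letters searched were TTTGGCGC, TTTCCCGC, TTTGCCGC and TTTCGCGC. They occurred in 18 of the 53 windows (34.0%), against 2.26% of all 32851 windows and 4.16% of the 10165 windows of tested genes. CCAAT, the letters bound by NF-Y, occurred in 52.8% of the replication windows in 38.3% of the windows of tested genes and in 37.4% of all windows. CCACNCCC, a form of the CACCC element of KLF factors, occurred in 20.8% of the replication windows, 22.6% of the windows of tested genes and 17.6% of all windows. No motif contains another, and all were searched on both strands. The GC content had a median of 62.3% in the replication windows, 60.7% in the windows of tested genes and 52.7% in all windows. The 18 genes with E2F letters had a median ratio of 1.58 and the 25 without them 1.51. The 25 genes with CCAAT had a median ratio of 1.63 and the 18 without it 1.39, and the 9 genes with the KLF letters had a median ratio of 1.55, against 1.53 for the 34 without. A match is a description of the letters and not a measured site, and the part of GC content in these shares was not tested.

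The windows below belong to Orc1 and Cdc6, with high ratios, and to Pole2 and Cdt1, with the lowest ratios. They are those with E2F letters among the 3 highest and 3 lowest genes that have 1 window, and are printed 5′ to 3′ on the gene's strand with the E2F letters, or their reverse complement, in capitals (RefSeq, GRCm38.p6).
Orc1, chr4:108579204-108579503 (plus strand): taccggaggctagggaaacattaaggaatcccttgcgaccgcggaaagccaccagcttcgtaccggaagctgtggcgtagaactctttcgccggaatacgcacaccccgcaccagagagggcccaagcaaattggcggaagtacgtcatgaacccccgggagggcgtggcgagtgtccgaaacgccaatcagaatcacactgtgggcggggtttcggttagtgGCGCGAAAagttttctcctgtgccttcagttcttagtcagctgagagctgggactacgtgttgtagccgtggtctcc
Cdc6, chr11:98907901-98908200 (plus strand): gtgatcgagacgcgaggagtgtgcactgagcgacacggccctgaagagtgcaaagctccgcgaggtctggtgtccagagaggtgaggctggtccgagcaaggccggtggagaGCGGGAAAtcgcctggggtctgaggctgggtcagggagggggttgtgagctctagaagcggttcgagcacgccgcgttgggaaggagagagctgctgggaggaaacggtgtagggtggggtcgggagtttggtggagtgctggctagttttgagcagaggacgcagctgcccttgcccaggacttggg
Pole2, chr12:69228141-69228440 (minus strand): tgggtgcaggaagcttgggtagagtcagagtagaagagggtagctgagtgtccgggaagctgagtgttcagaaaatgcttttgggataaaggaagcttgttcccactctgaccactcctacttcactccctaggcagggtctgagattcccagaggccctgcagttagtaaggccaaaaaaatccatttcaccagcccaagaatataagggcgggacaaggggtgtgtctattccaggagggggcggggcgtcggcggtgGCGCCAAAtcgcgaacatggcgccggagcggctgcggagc
Cdt1, chr8:122567765-122568064 (plus strand): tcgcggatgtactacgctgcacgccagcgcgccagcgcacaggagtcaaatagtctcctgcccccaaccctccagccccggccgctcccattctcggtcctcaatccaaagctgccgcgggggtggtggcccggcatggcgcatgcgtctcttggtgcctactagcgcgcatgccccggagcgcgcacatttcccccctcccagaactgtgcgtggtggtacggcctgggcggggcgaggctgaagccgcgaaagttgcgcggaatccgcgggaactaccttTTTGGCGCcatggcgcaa
The windows of Chaf1b, the other of the 3 highest, and of Dbf4, the other of the 3 lowest, hold no E2F letters and are not printed. In the printed windows the first base of the letters on the printed strand lies at position -27 in Orc1 and -138 in Cdc6, and at position 11 in Pole2 and 33 in Cdt1, counted from 1 at the annotated start, with -1 the base before it. The deposited gene region of Cdc6 begins at 98907801, before the printed window. By that annotation the whole Cdc6 window lies inside the gene.

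Origin recognition differed by subunit. Orc1, the largest subunit and an ATPase, had the highest ratio of all 52 genes. Orc1 (chromosome 4, 108579423 to 108614833, mm10) was at 23.7, 26.96, 24.8 and 25.7 CPM in the Klf2 lanes, against 9.81, 11.3, 10.7 and 10.2 CPM in the BFP lanes, a ratio of 2.41 (2.11 to 2.75). It was the sole gene whose whole interval lay above 2. Orc6, the smallest subunit, followed at 1.79 (1.68 to 1.904) and Orc2 at 1.51 (1.39 to 1.63). The other core subunits lay closer to 1, with Orc3 at 1.33 (1.24 to 1.42) and Orc5 at 1.27 (1.16 to 1.39). Orc4, of the same ATPase family, was the lowest, at 34.2, 37.1, 34.4 and 33.5 CPM in the Klf2 lanes, against 29.2, 24.9, 28.8 and 30.01 CPM in the BFP lanes, a ratio of 1.23 (1.13 to 1.35). On exon junction reads the ratio of Orc4 was 1.11 (0.924 to 1.34), which included 1. Summed over the 6 genes, ORC had a ratio of 1.51 (1.46 to 1.56).

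Among the licensing factors Gmnn and Cdc6 were at least 2-fold higher and the interval of Cdt1 included 1. Gmnn, which encodes geminin, the inhibitor of CDT1 (chromosome 13, 24751845 to 24761923), was at 54.3, 53.6, 54.4 and 55.3 CPM in the Klf2 lanes, against 22.5, 25.8, 26.95 and 25.2 CPM in the BFP lanes, a ratio of 2.17 (1.99 to 2.37). Cdc6, the ATPase that loads the helicase with ORC (chromosome 11, 98907801 to 98923940), was at 149.9, 158, 150.03 and 159.5 CPM in the Klf2 lanes, against 79.1, 75.5, 69.4 and 75.6 CPM in the BFP lanes, a ratio of 2.06 (1.96 to 2.17). In both genes every Klf2 lane lay above every BFP lane. On exon junction reads both were under 2, with Gmnn at 1.88 (1.66 to 2.13) and Cdc6 at 1.98 (1.77 to 2.21). Cdt1, the other loading factor (chromosome 8, 122568015 to 122573128), was at 11.2, 13.1, 13.03 and 10.8 CPM in the Klf2 lanes, against 10.5, 15.1, 13.03 and 13.2 CPM in the BFP lanes. The lanes of Cdt1 overlapped and its ratio of 0.932 (0.806 to 1.08) included 1, from 360 reads in the Klf2 library and 402 in the BFP library. The ratio of Cdt1 depends on the scaling, at 1.07 (0.929 to 1.24) on the lowest 20% of genes and 0.830 (0.718 to 0.959), an interval below 1, on the highest 20%. Gmnn and Cdt1 encode a binding pair, and their intervals did not overlap. Cdt1 overlaps Gm20388, a locus at 117.0 CPM in the Klf2 library and 119.2 CPM in the BFP library, so reads of this pair may not be separated. Of the exon reads of Cdt1, 317 of 360 in the Klf2 library and 362 of 402 in the BFP library were junction reads. Over all genes junction reads made up 22.4% and 21.9%. Few reads within its exons were thus counted, and its CPM may be too low. On junction reads alone its ratio was 0.894 (0.766 to 1.04).

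**Figure D3:**
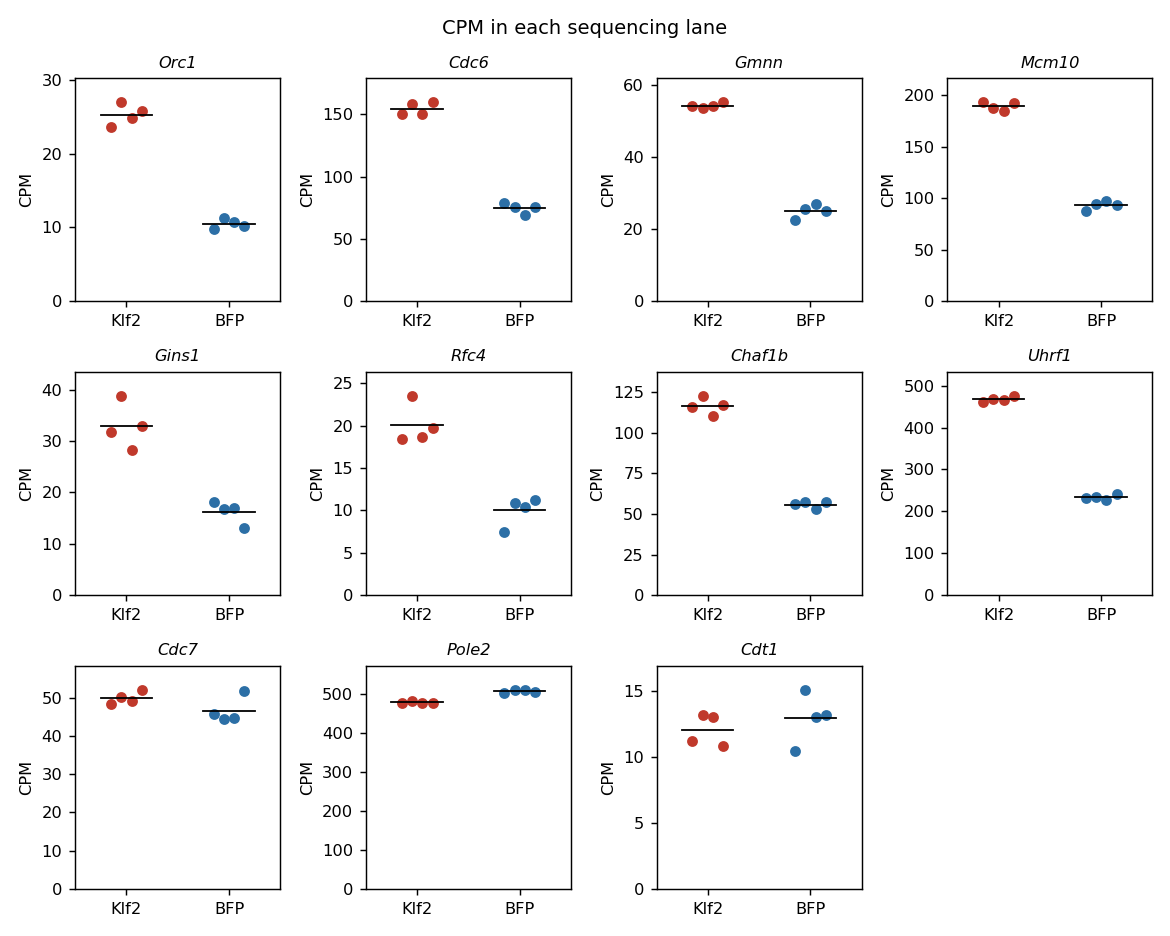
CPM in each sequencing lane (points, y axis from 0) for the 8 genes at least 2-fold higher and for Cdc7, Pole2 and Cdt1, with the summed library as a black line. Lanes of the Klf2 library (red) stand clear of those of the BFP library (blue) in the first 8 genes, overlap in Cdc7 and Cdt1, and lie slightly lower in Pole2.

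All 6 subunits of the MCM2-7 ring were at least 1.5-fold higher and none reached 2-fold. Mcm4 (chromosome 16, 15623897 to 15637400) was at 414, 413, 391 and 405 CPM in the Klf2 lanes, against 225, 207, 219 and 207 CPM in the BFP lanes, a ratio of 1.89 (1.84 to 1.95), and Mcm3 had a ratio of 1.85 (1.805 to 1.899). Intervals of this pair lay above those of the other 4 subunits. Mcm6 stood at 1.65 (1.599 to 1.704), Mcm5 at 1.65 (1.61 to 1.69) and Mcm7 at 1.59 (1.56 to 1.63). Mcm2 was the lowest, at 516, 516, 524 and 526 CPM in the Klf2 lanes, against 338, 348, 333 and 347 CPM in the BFP lanes, a ratio of 1.52 (1.49 to 1.56). The ring as a whole summed to 3219.8 CPM in Klf2 cells and 1927 CPM in BFP cells, a ratio of 1.67 (1.65 to 1.69).

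Mcm10 and Mcm8 are not subunits of the ring. Mcm10, which helps activate the helicase and tethers polymerase alpha (chromosome 2, 4989714 to 5012791), was at 193, 188, 184 and 192 CPM in the Klf2 lanes, against 87.9, 94.4, 97.8 and 93.5 CPM in the BFP lanes, a ratio of 2.03 (1.94 to 2.12). Mcm8, a helicase of recombination repair, was at 16.2, 18.5, 15.6 and 17.1 CPM in the Klf2 lanes, against 9.55, 14.3, 9.93 and 13.03 CPM in the BFP lanes, a ratio of 1.44 (1.25 to 1.65). Mcm8 rests on 503 reads in the Klf2 library and 364 in the BFP library, and on exon junction reads its ratio of 1.09 (0.842 to 1.41) included 1.

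The CDC7-DBF4 kinase, which fires origins, had a summed ratio of 1.16 (1.11 to 1.202), the lowest of the 15 groups apart from polymerase epsilon. Dbf4, its regulatory subunit, was at 141, 132, 140.2 and 129 CPM in the Klf2 lanes, against 113, 110.4, 115 and 117 CPM in the BFP lanes, a ratio of 1.19 (1.14 to 1.25). Cdc7, the catalytic subunit, was at 48.4, 50.2, 49.03 and 51.98 CPM in the Klf2 lanes, against 45.6, 44.3, 44.6 and 51.7 CPM in the BFP lanes, and its ratio of 1.07 (0.996 to 1.15) included 1. The lanes overlapped in Cdc7 and not in Dbf4. On exon junction reads Cdc7 had a ratio of 0.9504, and when scaled on the highest 20% of genes it had 0.954. Its interval lay above 1 when scaled on the lowest 20%, at 1.23 (1.15 to 1.33), and without lane 4, at 1.10 (1.007 to 1.195). The summed ratio of the kinase was 1.03 (0.991 to 1.07) when scaled on the highest 20%, which included 1.

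CDC45 and the 4 GINS subunits, which turn the ring into the active CMG helicase, were all higher. Gins1 (chromosome 2, 150905400 to 150931280) was at 31.7, 38.8, 28.3 and 32.9 CPM in the Klf2 lanes, against 18.2, 16.7, 17.02 and 13.03 CPM in the BFP lanes, a ratio of 2.03 (1.82 to 2.26). Gins2 had a ratio of 1.82 (1.56 to 2.13), Gins3 of 1.75 (1.56 to 1.97) and Cdc45 of 1.495 (1.43 to 1.56). Gins2 overlaps Gm20388, and its counts were mostly junction reads, 396 of 466 in the Klf2 library and 240 of 266 in the BFP library. On exon junction reads the ratio of Gins3 was 1.48 (0.809 to 2.76), which included 1. Gins4 was the lowest, at 35.97, 37.7, 35.9 and 31.7 CPM in the Klf2 lanes, against 26.6, 25.6, 31.5 and 28.6 CPM in the BFP lanes, a ratio of 1.26 (1.15 to 1.38), and its interval did not overlap those of the other 3 GINS genes. The summed ratio was 1.54 (1.49 to 1.599).

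Polymerase alpha-primase, which lays down RNA-DNA primers, was higher by a smaller ratio than the helicase on exon reads. Pola1, the catalytic polymerase subunit, was at 66.2, 63.8, 67.3 and 63.7 CPM in the Klf2 lanes, against 42.5, 41.7, 37.1 and 44.6 CPM in the BFP lanes, a ratio of 1.57 (1.47 to 1.69). Prim2, the large primase subunit, had 1.43 (1.35 to 1.51) and Pola2, the accessory subunit, 1.35 (1.302 to 1.401). Prim1, the catalytic primase, was at 121, 115, 123 and 126 CPM in the Klf2 lanes, against 103, 91.7, 96.2 and 100.2 CPM in the BFP lanes, a ratio of 1.24 (1.18 to 1.301). The 4 genes together had a ratio of 1.36 (1.33 to 1.39), whose interval lay below that of the MCM2-7 ring. On gene reads outside exons this order did not hold for the sums. The ratio there was 1.69 (1.62 to 1.78) for the 4 genes and 1.61 (1.54 to 1.69) for the ring, with overlapping intervals. Within the 4 genes Pola1 stood apart at 2.77 (2.51 to 3.07), while Prim2 had 1.62, Prim1 1.52 and Pola2 1.21. The sum without Pola1 was not tested.

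Polymerase delta, the main enzyme of the lagging strand, was uneven across the 3 subunits in the set. Pold4, which is outside the set, had a ratio of 0.993 (0.937 to 1.05). Pold2, which joins the catalytic subunit to the others (chromosome 11, 5872180 to 5878292), was at 167, 166, 162 and 161 CPM in the Klf2 lanes, against 85.2, 86.5, 81.8 and 85.4 CPM in the BFP lanes, a ratio of 1.94 (1.85 to 2.03). Pold1, the catalytic subunit, had a ratio of 1.39 (1.34 to 1.45). Pold3 was at 133, 122, 138 and 126 CPM in the Klf2 lanes, against 108, 107, 106 and 108 CPM in the BFP lanes, a ratio of 1.21 (1.15 to 1.27), and the intervals of the 3 genes did not overlap.

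Polymerase epsilon, the main enzyme of the leading strand, held both a higher gene and, with TMM scaling, the sole gene whose interval lay below 1. Pole, the catalytic subunit (chromosome 5, 110286306 to 110337474), was at 221, 219.5, 224 and 229 CPM in the Klf2 lanes, against 127, 134, 125 and 122 CPM in the BFP lanes, a ratio of 1.76 (1.69 to 1.83). Pole2, the accessory subunit next to it (chromosome 12, 69201779 to 69228190), was at 478, 481, 476 and 477 CPM in the Klf2 lanes, against 503, 509, 510.3 and 504 CPM in the BFP lanes, a ratio of 0.944 (0.923 to 0.966). All Klf2 lanes of Pole2 lay below all BFP lanes, by a small margin. Scaled on the 20% of genes with the lowest mean CPM its ratio was 1.09, so its direction depends on the scaling, and on the highest 20% Cdt1 had an interval below 1 as well. Pole2 carries 100% uniquely placed reads, overlaps no other tested gene and had the highest level per exon length of the set in the BFP library. The pair summed to a ratio of 1.11 (1.09 to 1.13), or 0.986 when scaled on the highest 20% of genes. On exon junction reads the sum had a ratio of 1.009 (0.982 to 1.04), which included 1. This sum leaves out Pole3, at 1.46 (1.38 to 1.55), and Pole4, at 0.926 (0.853 to 1.01), which are outside the set.

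The clamp and its loader were higher throughout. Pcna, the sliding clamp (chromosome 2, 132249162 to 132253314), was at 802, 815, 823 and 803 CPM in the Klf2 lanes, against 523, 531, 512 and 526 CPM in the BFP lanes, a ratio of 1.55 (1.52 to 1.58). Uniquely placed reads made up 39.5% of its total and gave a ratio of 1.48. Rfc4, a small subunit of the clamp loader RFC (chromosome 16, 23113943 to 23127737), was at 18.5, 23.5, 18.7 and 19.7 CPM in the Klf2 lanes, against 7.49, 10.8, 10.4 and 11.2 CPM in the BFP lanes, a ratio of 2.01 (1.75 to 2.31). The other 4 subunits lay close together. Rfc2 had a ratio of 1.55 (1.48 to 1.64), Rfc3 of 1.55 (1.45 to 1.65) and Rfc1, the large subunit, of 1.47 (1.402 to 1.55). Rfc5 was at 149, 149.5, 146 and 149 CPM in the Klf2 lanes, against 98.9, 99.2, 101 and 105 CPM in the BFP lanes, a ratio of 1.47 (1.404 to 1.54). Rfc4 overlaps Eif4a2, which was at 215.3 CPM in the Klf2 library and 171 CPM in the BFP library.

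RPA, which coats single-stranded DNA, and the enzymes that finish Okazaki fragments were all higher. Rpa2 was at 119, 118, 114 and 118 CPM in the Klf2 lanes, against 69.5, 66.97, 67.6 and 68.3 CPM in the BFP lanes, a ratio of 1.72 (1.63 to 1.82), and Rpa1, the large subunit, had a ratio of 1.63 (1.57 to 1.69). Rpa3, the smallest subunit, was at 42.7, 41.04, 41.8 and 44.3 CPM in the Klf2 lanes, against 32.02, 28.2, 30.1 and 31.2 CPM in the BFP lanes, a ratio of 1.398 (1.28 to 1.52). The interval of Rpa3 lay below those of both partners. Lig1, the DNA ligase that seals the fragments, was at 234, 239.7, 237 and 234 CPM in the Klf2 lanes, against 150.3, 145, 153 and 156 CPM in the BFP lanes, a ratio of 1.56 (1.51 to 1.62). Dna2, a nuclease and helicase that trims long flaps, was at 156, 154, 155 and 150.2 CPM in the Klf2 lanes, against 102, 96.5, 105 and 105 CPM in the BFP lanes, a ratio of 1.51 (1.44 to 1.58). Fen1, the flap endonuclease, had a ratio of 1.55 (1.48 to 1.61) on all exon reads, but only 4.12% of its reads were uniquely placed, and on those the ratio was 0.946 (0.766 to 1.17). On exon junction reads it was 1.14 (0.699 to 1.87), which also included 1.

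Chromatin factors of the fork had high ratios. Chaf1b, a subunit of the CAF-1 chaperone that deposits histones H3 and H4 on new DNA (chromosome 16, 93883901 to 93906115), was at 116, 123, 110.3 and 117 CPM in the Klf2 lanes, against 55.9, 57.3, 52.9 and 57.1 CPM in the BFP lanes, a ratio of 2.09 (1.97 to 2.21). Uhrf1, which brings the maintenance DNA methyltransferase to hemimethylated DNA (chromosome 17, 56303321 to 56323486), was at 462, 469, 465 and 475 CPM in the Klf2 lanes, against 231, 235, 228 and 241 CPM in the BFP lanes, a ratio of 2.003 (1.95 to 2.06). Chaf1a, the large CAF-1 subunit, was at 173, 187, 180.1 and 172 CPM in the Klf2 lanes, against 103, 109, 108 and 111 CPM in the BFP lanes, a ratio of 1.65 (1.58 to 1.73). The interval of Chaf1a lay below those of Chaf1b and Uhrf1.

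Fork protection factors formed 2 pairs. Clspn, which encodes claspin, the mediator of the CHK1 checkpoint kinase (chromosome 4, 126556935 to 126593903), was at 159, 149, 159 and 159 CPM in the Klf2 lanes, against 78.9, 80.9, 82.2 and 79.6 CPM in the BFP lanes, a ratio of 1.95 (1.85 to 2.04). Tipin had a ratio of 1.91 (1.83 to 1.99), while its binding partner Timeless had 1.43 (1.36 to 1.49). Wdhd1, which links the helicase to polymerase alpha, was at 96.4, 93.7, 95.5 and 107 CPM in the Klf2 lanes, against 72.6, 71.2, 67.7 and 70.7 CPM in the BFP lanes, a ratio of 1.39 (1.32 to 1.47). The intervals of Clspn and Tipin lay above those of Timeless and Wdhd1.

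By rank of the ratio, the genes at least 2-fold higher were Orc1, Gmnn, Chaf1b, Cdc6, Mcm10, Gins1, Rfc4 and Uhrf1, and the last 4 lay between 2.003 and 2.03. Just under the limit were Clspn at 1.95, Pold2 at 1.94 and Tipin at 1.91. The intervals of 7 of the 8 genes past the limit included 2, so membership of this group is within counting error for them. With a lane number left out of both libraries, between 5 and 7 of these genes were past the limit, against 267 to 281 over all genes tested. The lowest count was that without lane 2, and Orc1, Gmnn, Cdc6 and Chaf1b were past the limit each time.

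Levels per exon length differed widely between the genes, and the libraries put Pcna and Pole2 at the top and Gins2 at the bottom alike. On the scale of CPM per kb of exon, the highest were Pcna at 338 CPM per kb in the Klf2 library and 218 in the BFP library and Pole2 at 282 CPM per kb in the Klf2 library and 299 in the BFP library. Only 39.5% of the exon reads of Pcna were uniquely placed, against 100% for Pole2. The level of Pcna may thus be too high, and its rank on uniquely placed reads was not tested. The MCM2-7 genes lay next, with Tipin among them, between 113 and 185 CPM per kb in the Klf2 library, and between 59.7 and 113 in the BFP library. Highest and lowest MCM level stood 1.64-fold apart in the Klf2 library and 1.895-fold apart in the BFP library. Of the complexes with more than 1 gene RPA was the most even, with subunits 1.23-fold apart in the Klf2 library and 1.24-fold in the BFP library. ORC subunits were 11.2-fold apart in the Klf2 library and 9.68-fold in the BFP library, with Orc6 the highest at 52.3 CPM per kb in the Klf2 library and 29.3 in the BFP library. Within polymerase epsilon, Pole2 was 12.1-fold above Pole in the Klf2 library and 22.5-fold in the BFP library. Exon length is the deposited value per gene. The lowest level was that of Gins2, at 3.81 CPM per kb in the Klf2 library and 2.09 in the BFP library. Of its exon reads, 396 of 466 in the Klf2 library and 240 of 266 in the BFP library were junction reads. Over all genes junction reads made up 22.4% and 21.9%. Gins2 overlaps Gm20388 and few reads within its exons were counted, so its level may be too low, which was not tested.

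**Figure D4:**
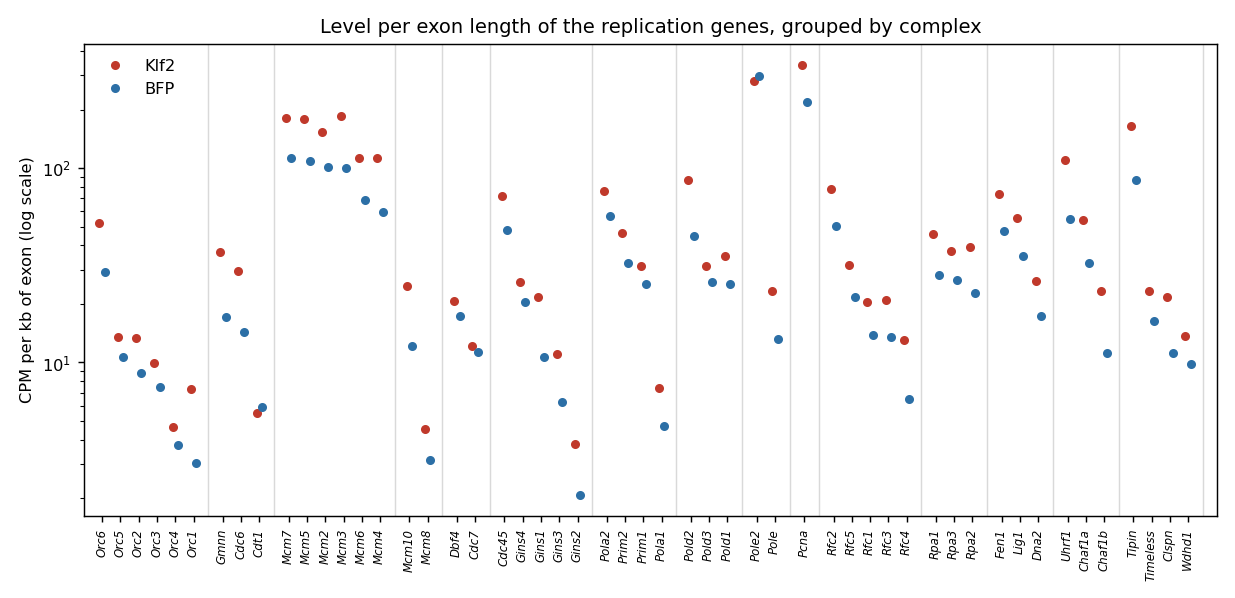
Level of each replication gene in CPM per kb of exon (y axis, log scale), in the Klf2 library (red) and the BFP library (blue), grouped by complex between vertical lines. The MCM2-7 genes lie close together on the upper part of the scale, and Pole2 stands apart from Pole.

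Reads outside exons, which include intron reads of unspliced RNA, gave another readout from the same libraries, and most replication genes were higher on it too. Of the 50 genes with at least 20 such reads, 43 had an interval above 1, against 28.4% of the 9844 tested genes with that many reads, 6 included 1 and 1 lay below 1, against 27.4% of those tested genes. All 43 also had an exon interval above 1. The median ratio was 1.55 for the 50 genes and 0.991 for all genes. Too few such reads were counted for Cdt1, with 6 in the Klf2 library and 3 in the BFP library, and for Gins2, with 1 and 2, and both genes overlap Gm20388. Reads outside exons are not spliced messages, and reads of overlapping genes may be among them.

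Exon and non-exon ratios had overlapping intervals in 35 of the 50 genes. The non-exon interval lay above the exon interval in 6 genes, with Pola1 the furthest at 2.77 (2.51 to 3.07) outside exons against 1.57 (1.47 to 1.69) in exons. Mcm6, Prim1, Pole, Rfc1 and Rpa2 were the others. It lay below in 9 genes, namely Orc1, Orc3, Gmnn, Mcm4, Mcm7, Mcm10, Cdc45, Pole2 and Rpa3. The same shares over all genes tested were not computed, so these counts cannot be called particular to replication genes. For Orc1 the ratio was 1.36 (1.19 to 1.55) outside exons, and reads outside exons made up 40.8% of its gene reads in the Klf2 library, against 55.0% in the BFP library. For Cdc6 it was 2.35 (2.06 to 2.69) and for Uhrf1 1.95 (1.73 to 2.19), both overlapping the exon ratio. Across the 50 genes Spearman's rho between the exon and non-exon ratio was 0.69, given as a description, since both come from the same pair of libraries.

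Pole2 held 6934 reads outside exons in the Klf2 library and 8815 in the BFP library, more than any other replication gene, which were 17.5% and 28.8% of such reads in the set. Its non-exon ratio was 0.819 (0.793 to 0.845), the only one with an interval below 1. The non-exon reads of all 52 genes summed to a ratio of 1.35 (1.33 to 1.37), and without Pole2, left out after its values were seen, to 1.56 (1.53 to 1.59). Reads across an intron-exon boundary numbered 3219 in the Klf2 library and 2744 in the BFP library over the 52 genes, a ratio of 1.22 (1.16 to 1.28), while over all genes the ratio was 0.948 (0.943 to 0.954).

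**Figure D5:**
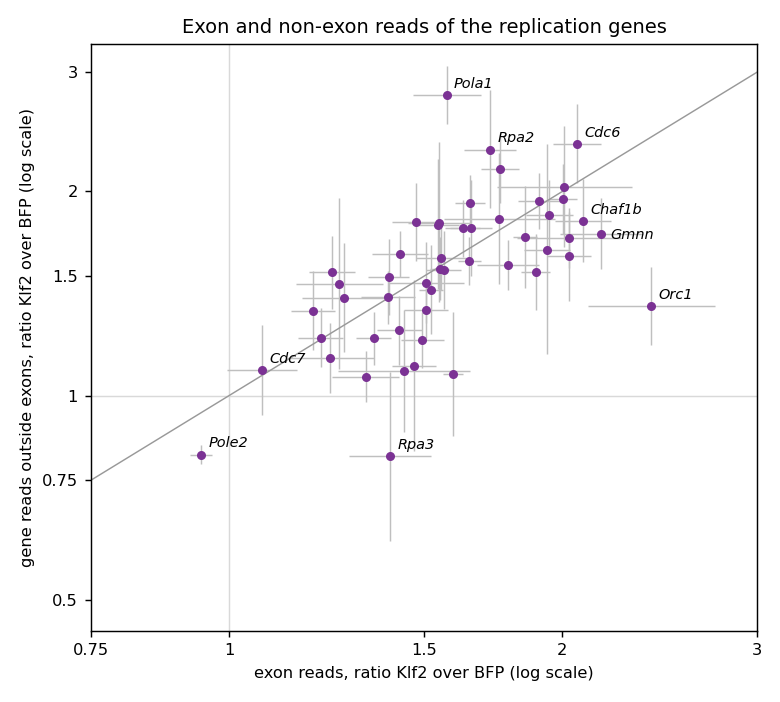
Ratio of gene reads outside exons (y axis, log scale) against ratio of exon reads (x axis, log scale), Klf2 over BFP, for the 50 replication genes with at least 20 reads outside exons; bars are exact 95% intervals of counting error and the diagonal marks equal ratios. Most genes lie right of and above 1, Pole2 lies below 1 on both axes, and Pola1 and Orc1 lie far from the diagonal.

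Shared reads touched few of these results. Of the 52 genes, 40 had at least 90% uniquely placed reads. On uniquely placed reads the interval lay above 1 in 48 genes, against 3872 of the 10552 genes tested on such reads. The 2-fold rule was then passed upward by 7, against 249 of those genes, the gene that dropped below the limit being Rfc4 at 1.97. Orc1 had 35.5% uniquely placed reads and a ratio of 2.54 (2.03 to 3.198) on them. Fen1 was the gene whose direction turned, with an interval that included 1. By position in the table, 12 of the 52 genes overlap another tested gene, and whether strand was used in counting is not given in the sources used here.

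Other replication factors, from a list of 39 that holds none of the 52, were mostly higher too. This list was written with earlier results of these data known and comes from the same libraries, so it is not independent support. All 39 reached 1 CPM. Of these, 33 had an interval above 1, against 37.1% of all genes tested. The 1.5-fold rule was passed upward by 12, against 10.2%, and the 2-fold rule by 3, against 2.45%. None passed the 2-fold rule downward, against 5.67%, and the median ratio was 1.41. The gene listed as 2810417H13Rik had the highest ratio, 2.94 (2.84 to 3.05), at 414 CPM in the Klf2 library and 141 CPM in the BFP library. Only 7.65% of its reads were uniquely placed, and on those the ratio was 1.897 (1.69 to 2.13), under 2 and below those of Nasp at 2.16 and Hells at 2.03. Nasp, a chaperone that holds histones H3 and H4, had 2.15 (2.06 to 2.24), and Hells, a chromatin remodeller needed for DNA methylation, had 2.02 (1.93 to 2.11). Top2a, the topoisomerase that untangles sister chromatids, had 1.805 (1.76 to 1.85). Recql4, a helicase of origin firing, was the single gene of this list with an interval below 1, at 0.857 (0.812 to 0.905).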

How the data were processed

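Poly(A) RNA of 2 libraries, Klf2 and BFP, was sequenced in 4 lanes each. The deposited tables give counts per gene (exon reads, uniquely placed exon reads, junction, intron-exon and total gene reads), per the file headers. Per the submitters' processing notes CASAVA 1.8.2 and build mm10 were used. Strand use and other counting settings were not given in the sources used here. A deposited RPKM column was not used because its decimals are written with commas.

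Lanes were summed per group. CPM used TMM factors (0.969 Klf2, 1.03 BFP) from edgeR 4.0.16, and alternative size factors came from DESeq2 1.42.0; intervals used scipy 1.17.1. Ratios have exact Clopper-Pearson 95% intervals conditional on the summed reads, which cover counting error only. Genes at 1 CPM or more in either library were tested; a call needed a ratio of at least 2 (or 1.5) and an interval that excludes 1. Reads outside exons are total gene reads minus exon reads, with at least 20 summed. With 1 library per group no count test was run. Lane values were given for genes past 2-fold and the highest and lowest ratio of each complex. All members could be named. Of other replication genes, those past 2-fold and the 4 furthest from 1 were named. Recql4, Pold4, Pole3 and Pole4 were named after their values were seen. Members and lists were chosen with earlier results of these data known. Promoter windows are from RefSeq.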

Additional observations from a re-analysis of the deposited data

How the results depend on the processing

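No paired analysis was possible because the numbers mark lanes of 1 library per group and the results come from no test. The 8 genes at least 2-fold higher became 2 with total-read scaling, 17 when scaled on the lowest 20% of genes by mean CPM, 1 on the highest 20%, 5 on log2(CPM + 1) and 2 with RPKM recomputed from the counts, in place of the deposited RPKM. On log2(CPM + 1) the count over all genes was 146 of 10850. The replication genes past the limit were 6 with DESeq2 size factors, against 257 of all 10868 genes tested. They were 6 on junction reads, against 233 of 9802, and 7 on uniquely placed reads, against 249 of 10552. On junction reads Cdc6 (1.98), Gins1 (1.93) and Gmnn (1.88) fell under the limit and Pold2 (2.01) passed it. With a lane number left out the replication genes past the limit were 5 to 7, against 267 to 281 over all genes. Orc1 was among the replication genes past the limit in every one of these settings. The 32 genes at least 1.5-fold higher became 18 on the highest 20%, while the same count over all genes was 583 of 10798, against 1112 of 10850. The median log2 ratio of 0.63 became 0.54 with total reads, 0.84 on the lowest 20%, 0.47 on the highest and 0.55 with RPKM, and 0.62 to 0.66 without a lane. The cause was not tested beyond the scaling itself, which shifts all genes alike. Over all genes, 205 higher and 757 lower with total reads and 128 and 559 with RPKM stood against 266 and 615. The direction reversed for Pole2 (1.09, lowest 20%), for the polymerase epsilon sum (0.986, highest 20%) and for Fen1 (0.946, uniquely placed reads). Cdt1 (1.07, lowest 20%) and Cdc7 (0.954, highest 20%, and 0.9504, junction reads) also crossed 1, with intervals that included 1. None of the 52 genes was at least 2-fold lower under these settings. Those with an interval above 1 numbered 45 on junction reads, against 2755 of 9802 genes, without Orc4, Mcm8, Gins3 and Fen1, and 51 on the lowest 20%, against 5875 of 10916 genes. The non-exon sum ratio of 1.35 was 1.56 without Pole2, chosen after seeing the data. With 1 library per group, differences between cultures, kits and constructs cannot be told apart.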
